A study of Mus musculus with 10 samples.

Results

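Glycolysis breaks glucose down to pyruvate, and many tumors turn that pyruvate into lactate and secrete it even where oxygen is present. The 10 genes described here follow the route of the sugar: Slc2a1 encodes GLUT1, which brings glucose into the cell, Hk1 and Hk2 encode the hexokinases that trap it, Pfkp, Aldoa, Pgk1, Eno1 and Pkm encode enzymes along the pathway, Ldha encodes the lactate dehydrogenase subunit that favors lactate, and Slc16a3 encodes MCT4, which exports lactate from the cell. Hypoxia-inducible factor (HIF) and MYC are known activators of many of these genes, and lactate in the tumor microenvironment (TME) is known for restraining T cells and NK cells. The genes were taken by name from the estimated count table, and all 10 were found among its 36009 genes.

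RNA was sequenced from 10 subcutaneous tumors of CT26, a mouse colorectal carcinoma line, in wild-type female BALB/c mice whose age the labels do not give. Every piece of tumor was resected and placed in RNAlater while still untreated, and a hydrogel loaded with poly(I:C), a synthetic double-stranded RNA, was then put on the tumor that remained. The 6 responders were mice whose tumors regressed completely, and the 4 non-responders were mice whose tumors grew without delay. The comparison asked which features of the TME before treatment differed between these groups, and groups of resected tumors without hydrogel were not part of it.

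None of the 10 genes differed between responders and non-responders past the threshold. By the quasi-likelihood test of edgeR, 0 of 10 had an adjusted p under 0.05, against 8.06% of the 16041 genes tested, 4.71% higher and 3.35% lower in responders. At an unadjusted p under 0.05 there were 2 of 10, Hk1 and Pfkp, both with higher estimates in responders, against 29.1% of all genes tested, 15.6% higher and 13.5% lower. The Wald test of DESeq2 and limma-voom, which called 16.2% and 6.75% of all genes, likewise called 0 of the 10. The estimates were higher in responders for 5 genes and lower for the other 5, with log2 fold changes from -0.13 for Eno1 to 0.36 for Pfkp. Responder and non-responder values overlapped for all 10 genes, where 10.4% of the genes tested had groups that did not overlap, 5.84% higher and 4.55% lower in responders. The median log2 fold change was -0.00086 over the 10 genes and -0.0086 over all genes tested.

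Levels are given as CPM, counts relative to the library total after scaling by trimmed mean of M values (TMM), and each ± is an SD over tumors unless marked SE. Together the 10 genes took from 0.65% of a library, in responder 5, to 0.825%, in non-responder 3. The counts behind the values were large, from 1594 for Slc16a3 to 98729 for Pkm in a tumor, so counting error is small beside the spread between tumors.

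Sequence is shown for the sites where HIF and MYC are known to bind, because most of these genes are described as their targets. The HIF core was searched as ACGTG or GCGTG and the E-box of MYC as CACGTG, on both strands, in the 250 bases before each start site that RefSeq gives on GRCm38.p6. The E-box holds the letters of the core, so each E-box also counts as a core site. All 10 genes matched by symbol, and all 10 had a core site before at least 1 of their start sites, against 41.5% of 27025 genes. Of their 17 windows, 14 (82.4%) had a core site, against 38.6% of 32851 windows. Some windows of Eno1 and of Aldoa overlap and hold the same sites, so windows are not separate counts. The 10 genes had more windows per gene than all genes, which gives more places for a site. Each core also contains CG, and the background was not matched for base composition. Only Ldha among the 10 had an E-box, against 6.86% of genes. Shown are the windows of Pgk1, Ldha, Slc16a3 and, as the lactate transporter compared with Slc16a3 in a ratio, Slc16a1, since the results below turn on these genes. Letters run 5′ to 3′ on the strand of the gene, and capitals mark core sites and E-boxes, read on either strand.

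Pgk1, chrX:106186850-106187099, plus strand: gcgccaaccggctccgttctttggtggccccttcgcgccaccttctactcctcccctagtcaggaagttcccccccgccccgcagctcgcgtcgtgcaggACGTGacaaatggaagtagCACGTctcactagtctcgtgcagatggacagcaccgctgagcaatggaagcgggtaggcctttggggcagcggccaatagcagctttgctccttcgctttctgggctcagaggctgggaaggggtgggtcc

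Ldha, chr7:46845554-46845803, plus strand: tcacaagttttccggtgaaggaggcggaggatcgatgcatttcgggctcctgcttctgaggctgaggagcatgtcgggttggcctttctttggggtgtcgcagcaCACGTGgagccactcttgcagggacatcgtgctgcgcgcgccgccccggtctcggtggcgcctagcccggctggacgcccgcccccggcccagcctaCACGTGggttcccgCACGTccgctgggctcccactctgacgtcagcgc

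Slc16a3, chr11:120948817-120949066, plus strand: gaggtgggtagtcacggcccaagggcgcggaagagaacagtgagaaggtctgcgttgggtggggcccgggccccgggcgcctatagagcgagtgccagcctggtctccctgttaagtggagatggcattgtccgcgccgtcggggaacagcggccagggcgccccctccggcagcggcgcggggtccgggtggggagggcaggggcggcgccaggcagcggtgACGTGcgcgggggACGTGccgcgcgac

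Slc16a1, chr3:104638414-104638663, plus strand: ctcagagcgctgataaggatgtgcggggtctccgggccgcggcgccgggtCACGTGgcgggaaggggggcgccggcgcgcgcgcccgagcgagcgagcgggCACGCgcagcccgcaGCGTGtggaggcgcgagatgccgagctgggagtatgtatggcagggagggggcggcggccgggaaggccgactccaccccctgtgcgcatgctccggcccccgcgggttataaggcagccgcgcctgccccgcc

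The Pgk1 window held 2 core sites, one in each orientation, and the Slc16a3 window held 2 close to the start site. In the Ldha window shown, 2 of the 3 core sites were E-boxes, and the second Ldha window, before a start site further downstream, held 1 core site and 0 E-boxes. Slc16a1, the partner of Slc16a3, had 3 core sites, of which 1 was an E-box. The Ldha and Slc16a3 windows lie inside the annotated genes, because each gene has a transcript that starts further upstream. A match of letters is a description of the window and shows no binding in these tumors.

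Transcripts of the glucose importer covered overlapping ranges in the groups. Slc2a1 (ENSMUSG00000028645, chromosome 4, 119108711 to 119137983, GRCm38) ranged from 149.7 to 222.3 CPM in the 6 responders with a median of 198.5 CPM, and stood at 213.1, 201.0, 249.7 and 167.1 CPM in non-responders 1 to 4. Responder 5 was the lowest and non-responder 3 the highest of the 10 tumors. Means were 194.3 ± 24.6 CPM (n = 6) and 207.7 ± 34.1 CPM (n = 4), a log2 fold change of -0.10 with a 95% interval from -0.355 to 0.162 (edgeR adjusted p = 0.629).

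The hexokinases commit glucose to metabolism in the cell by phosphorylating it, Hk1 in most tissues and Hk2 above all in muscle, fat and tumors. Hk1 (ENSMUSG00000037012, chromosome 10, 62268855 to 62379908) was at 138.7 to 159.1 CPM in responders, median 153.5 CPM, and at 141.3, 136.2, 152.3 and 129.9 CPM in the non-responders. Its estimate was 1.09-fold, the narrowest of the 10 in its error (edgeR log2 fold change 0.12 ± 0.0541 SE, unadjusted p = 0.0493, adjusted p = 0.17), and 3 of 6 responders lay above every non-responder. Hk2 (ENSMUSG00000000628, chromosome 6, 82725025 to 82774454) was at 106.0 to 135.7 CPM in responders, median 123.7 CPM, and at 118.9, 119.0, 148.5 and 89.25 CPM in the non-responders. Non-responders 3 and 4 were thus the highest and the lowest tumors for Hk2, with all 6 responders between them (log2 fold change 0.05, 95% interval -0.206 to 0.302, edgeR adjusted p = 0.82).

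Pfkp had the largest estimate of the 10 genes in the fit without covariates. It encodes the platelet type of phosphofructokinase, the main control point of glycolysis. Pfkp (ENSMUSG00000021196, chromosome 13, 6579768 to 6648777) was at 103.4 to 133.0 CPM in responders, median 112.4 CPM, and at 72.75, 100.1, 117.9 and 69.73 CPM in the non-responders. All 6 responders were above non-responders 1, 2 and 4, but only 2 were above non-responder 3. The means of 115.4 ± 11.3 CPM and 90.1 ± 23.0 CPM gave 1.28-fold (edgeR log2 fold change 0.36 ± 0.14 SE, unadjusted p = 0.0258, adjusted p = 0.118). The log2 fold change was 0.252 to 0.513 when tumors were left out in turn, and 0.024 with the leukocyte gene Ptprc as a covariate, below Slc16a3 at 0.198 and Hk1 at 0.151 in that fit. Pfkp overlaps Pitrm1 on the opposite strand, which had 79.7% as many counts, and 5.29% of its 31-base stretches occur in other genes. Whether the counting used strand is not stated, so reads of the overlap may have been split between these genes.

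Aldoa encodes aldolase A, which splits the sugar into triose phosphates. Its levels (ENSMUSG00000030695, chromosome 7, 126795234 to 126800751) were 1128.2 to 1344.4 CPM in responders, median 1180.6 CPM, and 1167.7, 1221.6, 1299.7 and 1081.0 CPM in the non-responders. The groups covered nearly the same range, with a log2 fold change of 0.02 and a 95% interval from -0.123 to 0.172 (edgeR adjusted p = 0.843).

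Pgk1, Eno1 and Pkm serve the lower part of the pathway, in which ATP and pyruvate are made. Phosphoglycerate kinase Pgk1 (ENSMUSG00000062070, chromosome X, 106187100 to 106203699) ranged from 783.1 to 985.0 CPM in responders, median 890.5 CPM, and stood at 881.4, 987.8, 1004.0 and 783.6 CPM in the non-responders. Responder 5 and non-responder 4 were alike at the low end, and the log2 fold change was -0.03 (95% interval -0.21 to 0.158, edgeR adjusted p = 0.867). Pgk1 shares 54.7% of its 31-base stretches with other genes, though the copy that shares most, Pgk1-rs7, had only 1.52% as many counts.

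Enolase 1 and pyruvate kinase M had lower estimates in responders, within the spread between tumors. Eno1 (ENSMUSG00000063524, chromosome 4, 150236721 to 150248879) was at 742.8 to 944.2 CPM in responders, median 863.3 CPM, and at 916.0, 977.4, 965.7 and 857.7 CPM in the non-responders. The log2 fold change was -0.13 (95% interval -0.285 to 0.0249, edgeR adjusted p = 0.247). Eno1 has a near-identical copy, Eno1b, which was assigned 108% as many counts as Eno1, so the split between them is uncertain. With both summed the levels were 1774 ± 153 CPM and 1912.5 ± 116 CPM, and the log2 fold change was -0.11 (95% interval -0.267 to 0.0507, edgeR adjusted p = 0.347).

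Pkm (ENSMUSG00000032294, chromosome 9, 59656368 to 59679375), which encodes the last enzyme of the pathway, was at 2104.9 to 2696.9 CPM in responders, median 2625.0 CPM, and at 2726.0, 2828.2, 2785.2 and 2579.3 CPM in the non-responders. Of the non-responders, 3 were above every responder and non-responder 4 was not. The log2 fold change was -0.11 (95% interval -0.271 to 0.0488, edgeR adjusted p = 0.336). Gene counts do not separate the PKM1 and PKM2 isoforms, which come from the same gene.

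The genes of lactate production and export had estimates on opposite sides of 0, and neither passed the test. Ldha (ENSMUSG00000063229, chromosome 7, 46841475 to 46855627) was at 1169.3 to 1413.7 CPM in responders, median 1327.5 CPM, and at 1400.7, 1430.2, 1455.3 and 1281.5 CPM in the non-responders. Responder 1 reached the non-responder levels and non-responder 4 lay among the responders. The means of 1303 ± 85.6 CPM and 1392 ± 76.9 CPM gave 0.936-fold (95% interval 0.853 to 1.03-fold, edgeR adjusted p = 0.327). Slc16a3 (ENSMUSG00000025161, chromosome 11, 120948480 to 120960868) was at 57.36 to 76.6 CPM in responders, median 69.84 CPM, and at 64.36, 63.68, 71.97 and 49.77 CPM in the non-responders. Responder 5 was below 3 of the non-responders, and the 1.10-fold estimate had a 95% interval from 0.951 to 1.28-fold (edgeR adjusted p = 0.36).

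**Figure D1:**
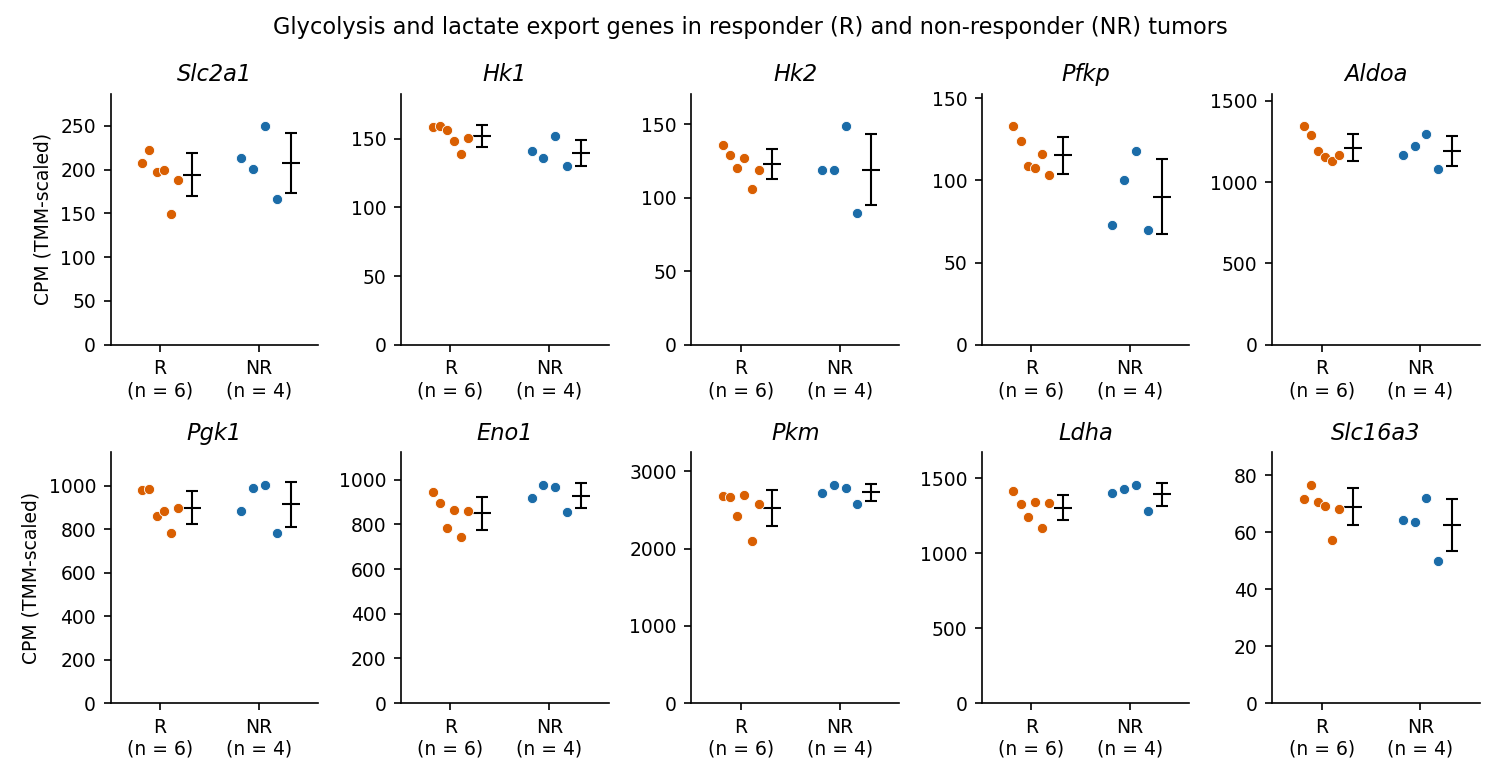
CPM of each of the 10 genes (y axis, linear, from 0) in responder (R) and non-responder (NR) tumors, with a point per tumor and the mean ± SD beside it. The groups overlap in every panel, from Slc16a3 at 49.77 to 76.6 CPM to Pkm at 2104.9 to 2828.2 CPM.

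The spread over the 10 tumors was small. The highest tumor exceeded the lowest by 1.22-fold for Hk1 to 1.91-fold for Pfkp, and the coefficient of variation ranged from 6.74% for Ldha to 19.4% for Pfkp. Tumors at the ends recurred across genes. Responder 5 was the lowest tumor for Slc2a1, Pgk1, Eno1, Pkm and Ldha, and non-responder 4 was the lowest for Hk1, Hk2, Pfkp, Aldoa and Slc16a3. Non-responder 3 was the highest for Slc2a1, Hk2, Pgk1 and Ldha. Each group therefore held the lowest tumor for 5 of the 10 genes.

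**Figure D2:**
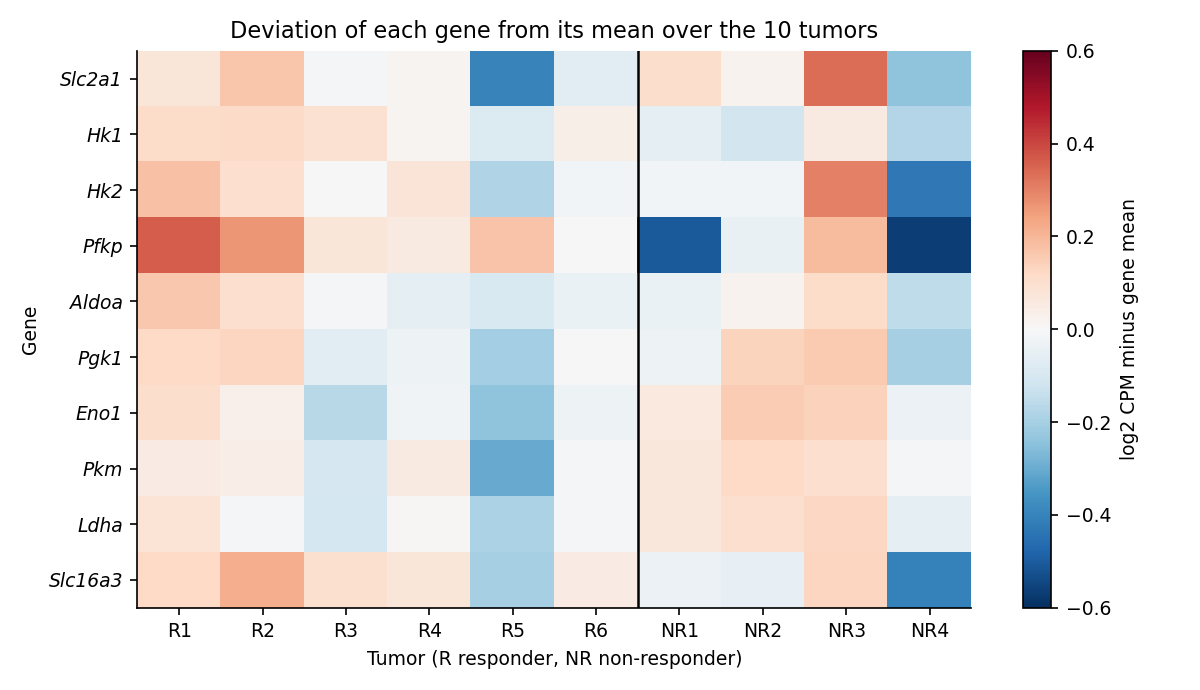
log2 CPM of each gene (rows) in each tumor (columns) minus the mean of that gene over the 10 tumors, as color from blue (lower) to red (higher). Responder 5 and non-responder 4 are blue in most rows, and non-responder 3 is red in all 10.

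Per length of gene, pyruvate kinase stood highest of the 10 genes. Other pathway genes such as Gapdh and Tpi1 were not put on this scale. Dividing CPM by the combined length of all exons, the means over 10 tumors were 521.5 ± 42.3 CPM per kb for Pkm, 413.9 ± 28.6 for Aldoa, 404.4 ± 27.3 for Ldha, 403.0 ± 36.8 for Pgk1, 163.8 ± 14.1 for Eno1, 56.9 ± 7.93 for Slc2a1, 20.3 ± 2.69 for Hk2, 17.2 ± 1.18 for Hk1, 12.5 ± 1.48 for Slc16a3 and 7.86 ± 1.53 for Pfkp. Among the 10 genes, those of the enzymes from aldolase to lactate dehydrogenase thus stood above the glucose transporter, and the hexokinases, MCT4 and Pfkp lay lowest. Per combined exon length, Aldoa, Ldha and Pgk1 were not ordered beyond their spread, as Aldoa exceeded Ldha in 5 of 10 tumors and Ldha exceeded Pgk1 in 5 of 10. The levels depended on the length used. Per kb of the longest transcript, means were 1072.4 CPM for Pkm, 777.8 for Aldoa, 737.6 for Ldha, 495.5 for Pgk1, 434.7 for Eno1, 61.2 for Slc2a1, 34.4 for Hk1, 22.0 for Hk2, 15.3 for Slc16a3 and 12.1 for Pfkp. On that scale Ldha exceeded Pgk1 in 10 of 10 tumors and Aldoa exceeded Ldha in 8 of 10, and Hk1 stood above Hk2 in place of below it. The level of Eno1 rests on the uncertain split with Eno1b on either scale.

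The rest of the pathway had no call in edgeR either. Of 26 other genes of glycolysis and lactate transport, 23 were tested (the others had too few counts), 14 with a higher and 9 with a lower estimate in responders. Of these, 0 had an adjusted p under 0.05 in edgeR, against 8.06% of all genes tested. At an unadjusted p under 0.05 there were 10 of 23, 8 higher and 2 lower in responders (29.1% of all genes tested). Limma-voom called 0, against 6.75% of all genes. The DESeq2 Wald test called 5 (Hk3, Pfkfb4, Pfkm, Pgam2 and Slc2a3), against 16.2% of all genes. The median log2 fold change was 0.02.

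The 3 genes of that list with the smallest p were Slc2a3, Pfkfb4 and Hk3. Slc2a3, which encodes the high-affinity glucose transporter GLUT3 of neurons and leukocytes, was at 7.26 to 16.06 CPM in responders, median 10.92 CPM, and at 4.603, 7.018, 8.975 and 5.459 CPM in the non-responders. Of the responders, 5 were above every non-responder, and the estimate was 1.73-fold (95% interval 1.23 to 2.43-fold, edgeR adjusted p = 0.0529). Pfkfb4, an enzyme that makes the activator of phosphofructokinase, was at 23.8 ± 2.10 CPM against 19.1 ± 2.67 CPM (edgeR log2 fold change 0.32 ± 0.0945 SE, adjusted p = 0.059).

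Of the 23 genes of that list tested, 1 had groups that did not overlap, against 10.4% of all genes tested, 5.84% higher in responders. This was Hk3, a hexokinase of myeloid cells. It was at 86.64 to 122.2 CPM in responders, median 103.6 CPM, and at 17.8, 74.36, 75.05 and 50.88 CPM in the non-responders, an edgeR log2 fold change of 0.93 ± 0.303 SE at an adjusted p of 0.0752. Non-responder 1 was far below the other tumors. Among genes picked out after their values were seen, the muscle forms Pfkm and Pgam2 had log2 fold changes of 0.28 and 0.89 (edgeR adjusted p = 0.0861 and 0.0832).

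**Figure D3:**
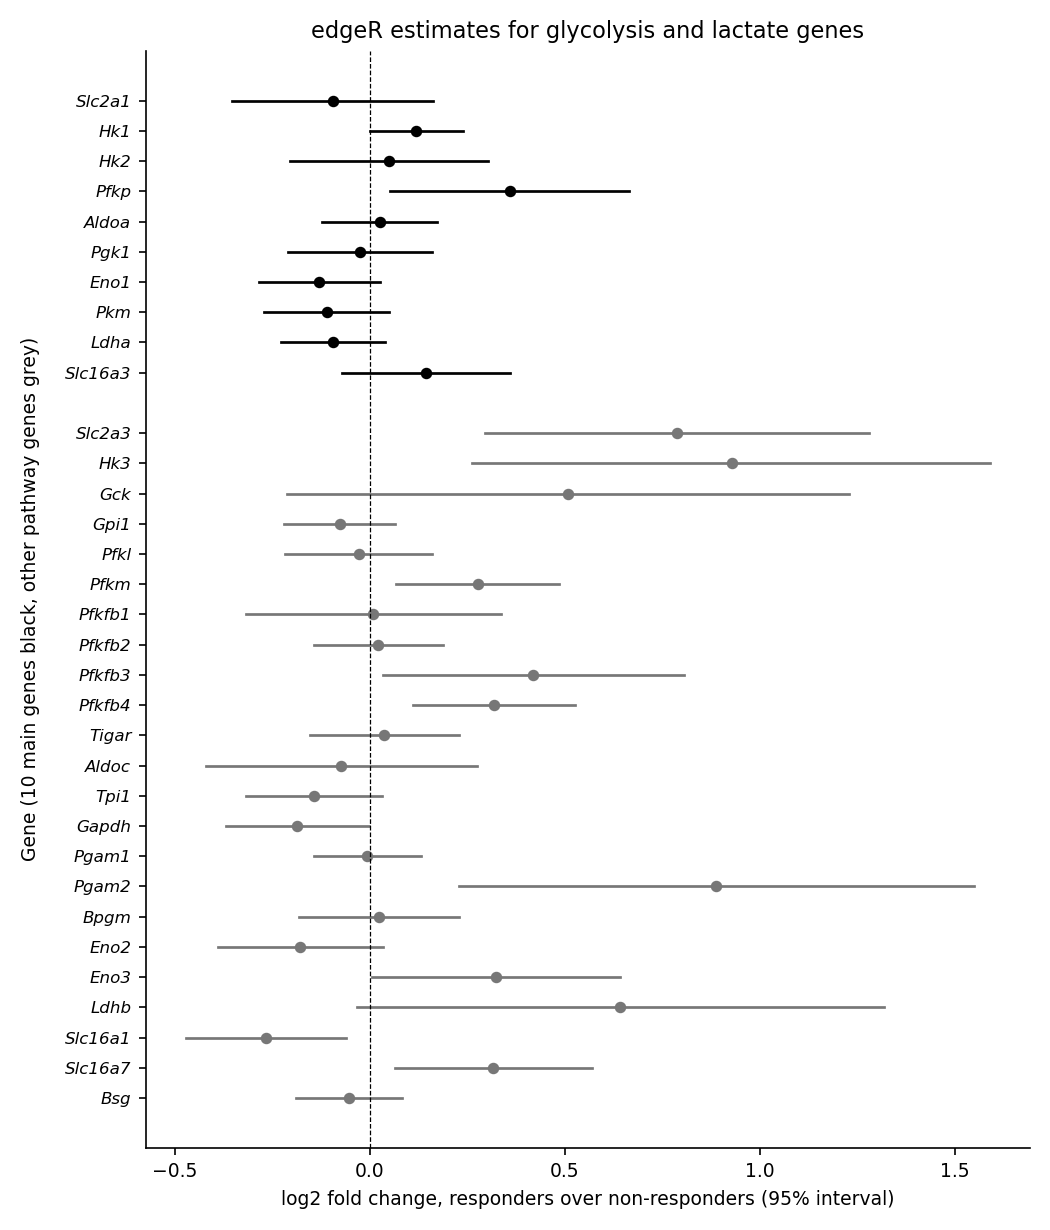
log2 fold change of responders over non-responders (x axis) with its 95% interval from edgeR for the 10 genes (black) and 23 other genes of glycolysis and lactate transport (grey). The black estimates lie between -0.13 and 0.36, while Slc2a3, Hk3 and Pgam2 lie between 0.79 and 0.93 with wide intervals.

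Markers of some other cell types were called between the groups, where edgeR called 4.71% of all genes tested higher and 3.35% lower in responders. Of 8 macrophage markers, edgeR called 5 higher in responders, with a summed level of 2919 to 4342.5 CPM in responders and 2052 to 2761 CPM in non-responders. Skeletal muscle markers had 3 of 12 called higher, at 647.1 to 1819 CPM against 490.9 to 667.1 CPM, and adipocyte markers 2 of 7 tested, at 48.9 to 130.0 CPM against 26.6 to 51.9 CPM. T and NK cell markers had 1 of 10 called higher, at 203.2 to 443.2 CPM against 87.7 to 218.7 CPM, fibroblast markers had 1 of 8 called lower (5790.5 to 6878 CPM against 5043 to 8019 CPM), and neutrophil and erythroid markers had 0 of 6 and 0 of 4 tested (76.0 to 155.8 CPM against 60.4 to 127.1 CPM, and 12.2 to 27.8 CPM against 4.26 to 33.8 CPM). At an unadjusted edgeR p under 0.05, 12 of 12 skeletal muscle, 7 of 7 adipocyte and 9 of 10 T and NK cell markers were higher in responders. So were 6 of 8 macrophage and 1 of 6 neutrophil markers, while 1 of 8 fibroblast markers was lower and 0 of 4 erythroid markers passed. Over all genes tested these shares were 15.6% higher and 13.5% lower. No marker was at 0 in all 10 tumors. In bulk tumor, fewer cells of a type and less RNA per cell cannot be told apart. With the muscle marker score as a covariate in edgeR, 0 of all genes were called (966 at an unadjusted p under 0.05) and Slc2a1, Pgk1, Eno1, Pkm and Ldha had estimates between 6.6e-05 and 0.057 in place of negative ones. With the level of Ptprc, the leukocyte gene CD45, as a covariate, 0 genes were called (845 at an unadjusted p under 0.05), the log2 fold change of Slc2a1 was 0.0088 and that of Pfkp was 0.024. All 12 muscle markers had higher estimates in responders, so muscle content and response cannot be told apart in the muscle fit. How far Ptprc itself followed the groups is not given here.

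Most epithelial markers of the labelled cell type had few counts. Of 10 colon epithelium markers, Epcam, Krt8, Krt18, Vil1 and Cdx1 had too few counts to be tested, with Epcam at 0.7093 CPM or less in every tumor, and the 5 tested gave 0 calls. At an unadjusted edgeR p under 0.05, 3 of these 5 were lower in responders, against 13.5% of all genes tested. The sum of the 10 markers was 22.9 to 48.4 CPM in responders and 45.1 to 89.9 CPM in non-responders. Krt20 made up most of it, at 29.1 ± 9.80 CPM against 52.9 ± 18.5 CPM (edgeR adjusted p = 0.0834).

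Isozymes and paired transporters were compared as ratios within a tumor, which need no scaling between libraries. The 5 ratios were adjusted only among themselves, and were chosen with earlier results of these data known. No share over other gene pairs was computed. Of single genes tested, 10.4% had groups that did not overlap and 29.1% an unadjusted edgeR p under 0.05. The balance of the lactate transporters Slc16a3 and Slc16a1 differed between the groups. Slc16a3 (MCT4) was lower than Slc16a1 (MCT1, which can carry lactate both in and out of cells) in all 10 tumors. The log2 ratio of their counts was -1.73, -1.36, -1.43, -1.56, -1.61 and -1.49 for the responders in their order of number, and -1.93, -1.76, -1.97 and -2.12 for the non-responders. Every responder lay above every non-responder, though responder 1 and non-responder 2 were close. The difference of the means was 0.41 on the log2 scale, or 1.33-fold, with an exact two-sided permutation p of 0.00476, the smallest that 210 splits of the tumors can give (adjusted p = 0.0238 over 5 ratios). Per length, the geometric mean of the ratio of Slc16a3 to Slc16a1 levels was 0.288 in responders and 0.216 in non-responders.

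Neither term of that ratio passed the test alone. Slc16a1 (chromosome 3, 104638668 to 104658462) was at 174.8 to 238.0 CPM in responders, median 194.5 CPM, and at 244.7, 215.1, 281.9 and 216.4 CPM in the non-responders (edgeR log2 fold change -0.27 ± 0.0938 SE, adjusted p = 0.0912). Neither transporter shares a 31-base stretch with another gene. Without non-responder 1 or 2 the difference of the ratio was 0.42 and 0.48, the groups still did not overlap, and the exact permutation p was 0.0119, the smallest that the remaining 84 splits allow, or 0.0595 adjusted over the 5 ratios.

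Glucose transporters differed in their balance as well. The log2 ratio of Slc2a1 to Slc2a3 was 3.22 to 4.78 in responders and 5.53, 4.84, 4.80 and 4.94 in non-responders 1 to 4, so all 6 responders were below all 4 non-responders. The mean was 4.14 ± 0.515 (n = 6) against 5.03 ± 0.342 (n = 4), a difference of -0.88 (exact two-sided permutation p = 0.019, adjusted p = 0.0397). Per length, the geometric mean of the Slc2a1 level was 36.6 times that of Slc2a3 in responders and 67.4 times in non-responders. The adjusted exact permutation p was 0.0992 without non-responder 1, at a difference of -0.71, and 0.0595 without non-responder 2, at -0.94, where the smallest exact p is 0.0119 before adjustment. Responder 5 had the lowest ratio and also the lowest Slc2a1 and the highest Slc2a3. Alone, Slc2a1 had a log2 fold change of -0.10 and Slc2a3 one of 0.79 (edgeR adjusted p = 0.629 and 0.0529).

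For phosphofructokinase, Pfkp was compared with Pfkl, the liver type. The log2 ratio was -1.01 to -0.42 in responders and -1.38, -1.06, -0.84 and -1.36 in non-responders 1 to 4. Of the responders, 4 were above every non-responder, and the difference was 0.42 on the log2 scale (exact two-sided permutation p = 0.0238, adjusted p = 0.0397). Pfkl itself stood at 193.1 ± 21.4 CPM and 197.0 ± 15.8 CPM, so the ratio largely repeats the Pfkp values. For Pfkp alone the edgeR adjusted p over all genes was 0.118. Leaving out responder 1, 2, 3, 4 or 5 or non-responder 1, 2 or 4 raised the adjusted p above 0.05, to between 0.0529 and 0.0992 (exact permutation), at differences of 0.348 to 0.453.

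The other 2 ratios did not pass. Ldhb, which encodes the lactate dehydrogenase subunit that favors pyruvate, was at 1.05 to 4.90 CPM (26 to 175 counts), and Ldha exceeded it by 8.87 ± 0.515 log2 units in responders and 9.66 ± 0.681 in non-responders (difference -0.79, exact permutation p = 0.0571, adjusted p = 0.0714). Non-responder 4, at 8.76, lay among the responders, and without it the difference was -1.10 (adjusted exact permutation p = 0.0298). The log2 ratio of Hk2 to Hk1 was -0.31 ± 0.0727 and -0.26 ± 0.211 (difference -0.05, exact permutation p = 0.581, adjusted p = 0.581). Slc2a3 is known from leukocytes, some of whose markers were higher in responders as given above, and the part of those cells in the ratios was not tested.

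**Figure D4:**
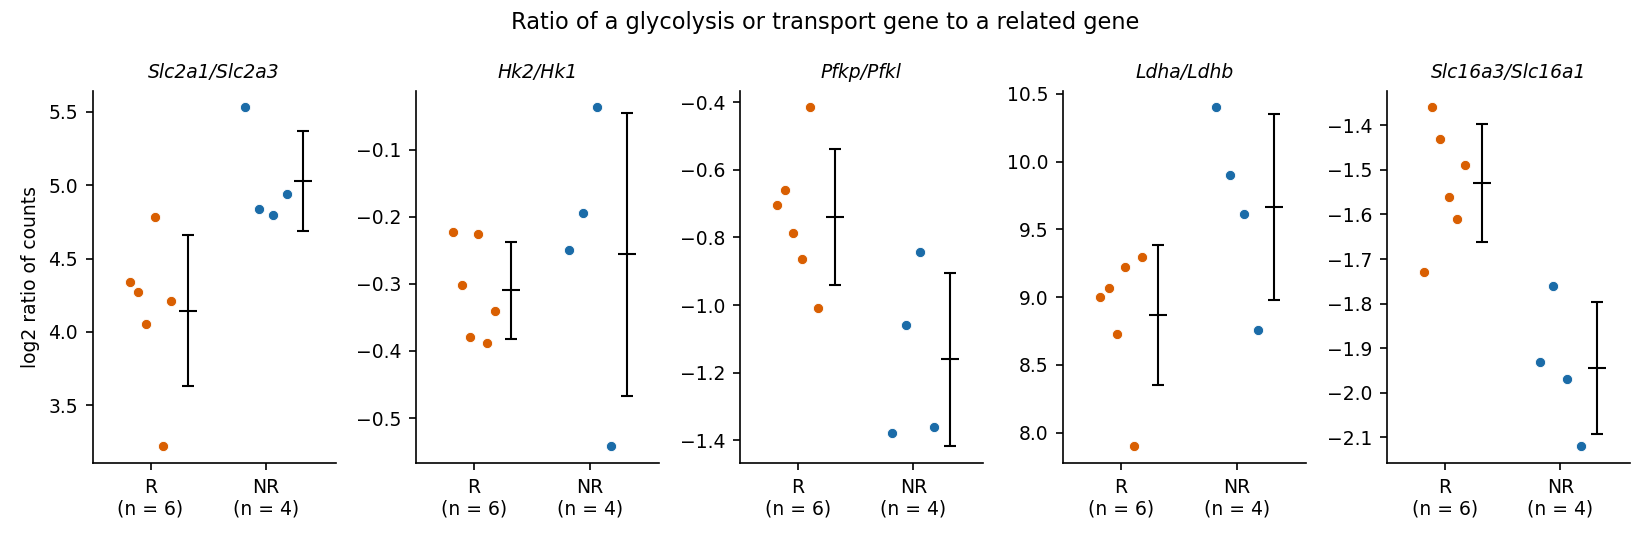
log2 ratio of counts of 2 related genes in each tumor (y axis, a range of its own in each panel, not from 0), for responders (R) and non-responders (NR), with the mean ± SD beside the points. Groups separate for Slc16a3/Slc16a1 and Slc2a1/Slc2a3, where all 6 responders lie on one side of all 4 non-responders.

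Across tumors, Pgk1 and Slc2a1 went up and down with Ldha, and Slc16a3 did so less closely. Over the 10 tumors, log2 CPM of Ldha and Pgk1 correlated with a Pearson r of 0.809 (permutation p = 0.00504, adjusted p = 0.00823 over 3 pairs) and a Spearman rho of 0.818 (permutation p = 0.00648). For Ldha and Slc2a1, r was 0.80 (permutation p = 0.00549, adjusted p = 0.00823) and rho 0.721 (permutation p = 0.0229). Ldha and Slc16a3 gave an r of 0.416 (permutation p = 0.231) and a rho of 0.321 (permutation p = 0.367).

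The relations of Ldha with Pgk1 and Slc2a1 did not pass without the tumors at the ends, so that their removal also narrows the range of Ldha. Without responder 5 and non-responder 3, the tumors farthest from the Ldha median, r was 0.65 for Pgk1 (n = 8, exact permutation p = 0.084), 0.453 for Slc2a1 (n = 8, exact permutation p = 0.263) and 0.143 for Slc16a3 (n = 8, exact permutation p = 0.761). Leaving out responder 5 alone gave 0.72 for Pgk1 and 0.627 for Slc2a1, with adjusted p of 0.0927 and 0.10 (permutation). Responder 5 was also the highest tumor for the muscle markers Acta1, Ckm, Myh1, Myh4 and Mylpf, though Myh2 was highest in responder 2. The part of muscle in these correlations was not tested. Leaving out non-responder 3 alone gave 0.767 and 0.746, each with an adjusted p of 0.0328 (permutation). Within the 6 responders, r was 0.87 for Pgk1 (exact permutation p = 0.0347, adjusted p = 0.104), 0.778 for Slc2a1 (exact permutation p = 0.0903) and 0.728 for Slc16a3 (exact permutation p = 0.124). The 4 non-responders are too few for a correlation of their own.

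**Figure D5:**
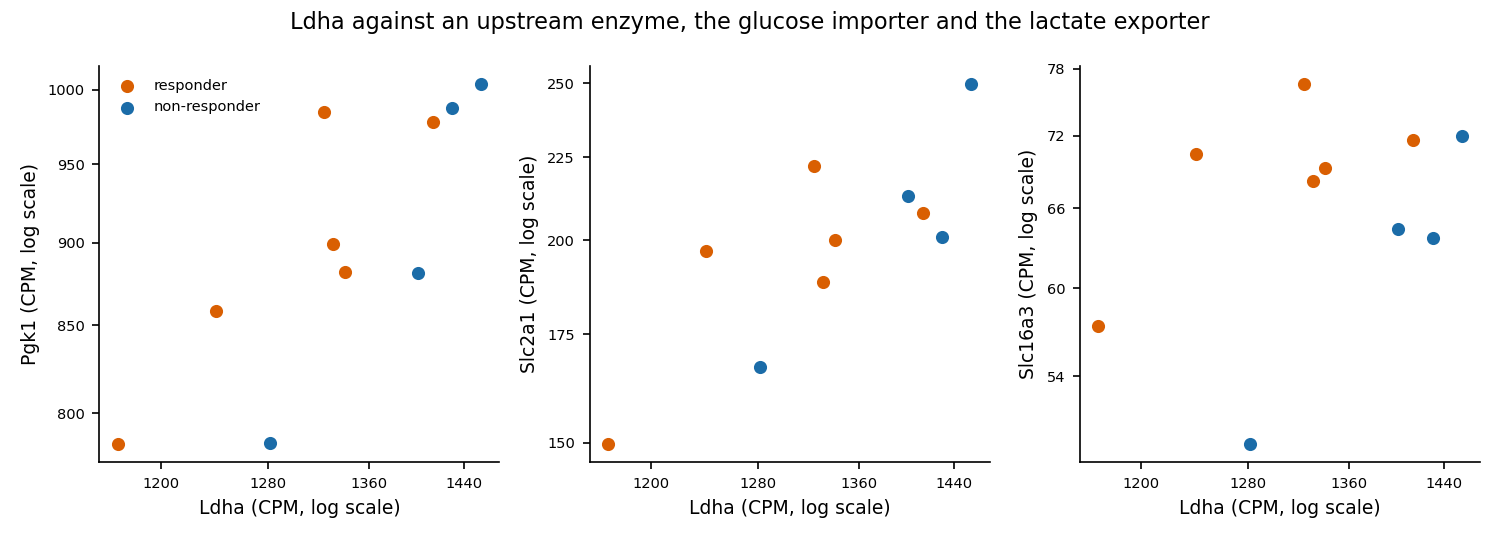
Ldha (x axis) against Pgk1, Slc2a1 and Slc16a3 (y axes), all in CPM on log scales, with a point per tumor colored by response. Pearson r was 0.809, 0.80 and 0.416 over the 10 tumors, and responder 5 is the lowest point for Ldha in every panel.

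As a description, r with Ldha among the other genes was highest for Eno1 at 0.972 and Pkm at 0.925, followed by Hk2 at 0.611, Aldoa at 0.603, Hk1 at 0.176 and Pfkp at 0.0167, over 10 tumors that include those at the ends. Leaving out the 10 genes themselves, and among genes with a mean of at least 10 CPM, Med13, Gm10557, Cep170, Tpi1 and Fam210a were most like Ldha over the 10 tumors, with r of 0.964, 0.961, 0.957, 0.956 and 0.953. Tpi1, triosephosphate isomerase, belongs to glycolysis too, and was at 687.2 ± 53.3 CPM in responders and 759.1 ± 81.2 CPM in non-responders (log2 fold change -0.14, edgeR adjusted p = 0.253). All these values come from the same libraries and share their scaling. The share of all genes with an r to Ldha as high as that of Pgk1 or Slc2a1 is not given here.

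In 5 lists of pathways next to glycolysis, edgeR called 0 of 67 genes tested, against 8.06% of all genes. At an unadjusted edgeR p under 0.05 there were 13 of 67, against 29.1% of all genes. Limma-voom called 0 as well, against 6.75% of all genes. The DESeq2 Wald test called 3 (Mpc2, Mlxipl and Gpd1), against 16.2% of all genes. Of 12 genes of the mitochondrial pyruvate carrier, pyruvate dehydrogenase and its control, 7 had higher and 5 lower estimates, with 4 at an unadjusted p under 0.05. Mpc2, a subunit of the mitochondrial pyruvate carrier, was at 15.68 to 22.91 CPM in responders, with a median of 17.84 CPM. The non-responders were at 15.54, 14.3, 14.96 and 14.09 CPM, without overlap (log2 fold change 0.32, edgeR adjusted p = 0.0647). It was the 1 gene of these 12 without overlap, against 10.4% of all genes tested. Pdk2 and Pdk4, kinases that switch off pyruvate dehydrogenase, had log2 fold changes of 0.33 and 1.02 (edgeR adjusted p = 0.10 and 0.144).

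Regulators and hypoxia targets had estimates in both directions. Of 12 regulators of the HIF and MYC pathways, 8 had higher and 4 lower estimates, with the smallest p for Mlxipl (the sugar-sensing factor ChREBP, log2 fold change 0.80, edgeR adjusted p = 0.0589), Max, the partner of MYC (log2 fold change 0.17, edgeR adjusted p = 0.0908), and the prolyl hydroxylase Egln2 (log2 fold change 0.13, edgeR adjusted p = 0.206). Of 16 hypoxia targets outside glycolysis, 4 had higher and 12 lower estimates, with a median log2 fold change of -0.09. Mif and Car12 were among those with the smallest p, with log2 fold changes of 0.20 and -0.28 (edgeR adjusted p = 0.185 and 0.272).

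In the pentose phosphate and serine branches, 7 of 12 genes had higher and 5 lower estimates. Gpd1, which turns a glycolytic intermediate into glycerol phosphate, averaged 4.57 ± 2.04 CPM in responders and 2.16 ± 0.337 CPM in non-responders (edgeR log2 fold change 1.09, adjusted p = 0.0588). Pgd, an enzyme of the oxidative pentose phosphate branch, was at 151.7 to 167.7 CPM in responders, with a median of 161.7 CPM. The non-responders were at 169.1, 169.0, 175.4 and 168.7 CPM, without overlap but by 0.943-fold only (edgeR adjusted p = 0.158). It was the 1 gene of these 12 without overlap, against 10.4% of all genes tested. Psat1, of serine synthesis, had a log2 fold change of -0.22 (edgeR adjusted p = 0.203).

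In the TCA cycle 3 of 15 genes had higher and 12 lower estimates, with a median log2 fold change of -0.05. At an unadjusted p under 0.05 there were 4, all lower. That p was reached by 29.1% of all genes tested, 15.6% higher and 13.5% lower. The genes of the cycle with the smallest p were Idh3g and Idh3a, subunits of isocitrate dehydrogenase, and malate dehydrogenase Mdh2. Their log2 fold changes were -0.10, -0.10 and -0.13 (edgeR adjusted p = 0.13, 0.133 and 0.149). Sucla2, a subunit of succinyl-CoA synthetase, was picked out after its values were seen. It was the 1 gene of 15 whose groups did not overlap, against 10.4% of all genes tested. The lowest responder was at 45.42 CPM and the highest non-responder at 45.39 CPM (log2 fold change 0.07, edgeR adjusted p = 0.281). Of all genes tested, 48.2% had a higher estimate in responders.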

How the data were processed

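PolyA RNA of resected, untreated CT26 tumors (6 responders, 4 non-responders) was sequenced by the authors with paired 150 bp reads, and abundance was estimated with Kallisto and tximport on mm10 (GRCm38 in the processing notes). The deposited table holds expected counts (44.8% of values fractional at a tolerance of 1e-06), not scaled to depth. Annotation release, tximport scaling, strand setting and batches are not given in the sources used here. Rows without a gene name (9633) held 1.04% to 1.23% of the counts of a tumor and stayed in the fit.

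After rounding, counts were fitted with edgeR 4.0.16 in R 4.3.3 (filterByExpr, minimum count 10 and minimum total 15, TMM, glmQLFit and glmQLFTest, two-sided, Benjamini-Hochberg over 16041 genes, threshold 0.05). Library totals were 29065126 to 38042544 counts in responders and 23374649 to 32986456 in non-responders. log2 CPM used a prior count of 2, and gene positions and lengths came from GENCODE on GRCm38. The response label of a sample set its group, and tumors are numbered in accession order. Each library is a separate tumor in the labels, which do not number the mice, so p-values set group differences against the variation between these samples. Ratios were tested by exact two-sided permutation over 210 splits, and correlations with 100000 permutations (exact within subsets). DESeq2 1.42.0, limma 3.58.1 (voom), other scaling, covariates and leaving out tumors were alternatives, and summing Eno1 with Eno1b was chosen after seeing the data. The steps were tested on simulated data. The genes, lists and tests were chosen with earlier results of these data known. Genes named are all 10 genes, the ratio partners, the 3 with the smallest p in each other pathway list and the 5 most like Ldha, with Sucla2, Pfkm and Pgam2 picked out after their values were seen. A gene that this rule names in the hypoxia list is not reported here.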

Additional observations from a re-analysis of the deposited data

How the results depend on the processing

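Over 18 alternatives 0 of the 10 genes and 0 of the 16 hypoxia targets were called, and the lowest adjusted p of any of the 10 genes was 0.0544 (Pfkp). The count over all genes was 0 with the skeletal muscle or the Ptprc covariate, 2602 by DESeq2 and 0 to 1897 when tumors were left out in turn, 0 without non-responder 4 (4106 at an unadjusted p under 0.05), 16 without non-responder 1 and 17 without responder 3. Other glycolysis genes had 5 of 23 called by DESeq2, against 16.2% of all genes, and 0 to 4 when tumors were left out. There were 4 of 23 without responder 4 (Pfkm, Pgam2, Slc16a7, Slc2a3), where 1619 of 15985 genes were called. Without non-responder 2 there were 2 of 23 (Pfkfb3, Pfkfb4), where 1897 of 16238 genes were called. Scaling by DESeq2 or upper-quartile factors moved the median log2 fold change of all genes by 0.00079 and -0.00066.

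Of the log2 fold changes of the 10 genes under these alternatives, 14 changed sign and 166 kept it, none of them called. With the muscle covariate these were Slc2a1 at 0.057, Pgk1 at 0.052, Eno1 at 6.6e-05, Pkm at 0.042 and Ldha at 0.021, and with the Ptprc covariate Slc2a1 at 0.0088 and Aldoa at -0.013. Leaving out 1 tumor gave Aldoa -0.0066 (responder 1) and -0.02 (non-responder 4), Pgk1 0.01 (responder 5), 0.015 (non-responder 2) and 0.021 (non-responder 3), Slc2a1 0.004 (non-responder 3) and Hk2 -0.068 (non-responder 4). The ranges of these genes without 1 tumor were -0.02 to 0.068 for Aldoa, -0.094 to 0.021 for Pgk1, -0.188 to 0.004 for Slc2a1 and -0.068 to 0.172 for Hk2. The cause was not tested.

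When tumors were left out in turn, the log2 ratio difference ranged from -1.01 to -0.697 for Slc2a1/Slc2a3 (adjusted p above 0.05 without non-responder 1, at -0.713, or 2, at -0.944), from -0.149 to 0.019 for Hk2/Hk1, where it changed sign without non-responder 3, from 0.348 to 0.526 for Pfkp/Pfkl, from -1.1 to -0.555 for Ldha/Ldhb (adjusted exact permutation p = 0.0298 without non-responder 4, at -1.1) and from 0.354 to 0.476 for Slc16a3/Slc16a1. Correlations with Ldha ranged from 0.72 to 0.877 for Pgk1, 0.627 to 0.861 for Slc2a1 and 0.23 to 0.535 for Slc16a3. Adding 0.5 counts to the ratios and changing the scaling or prior count of the correlations changed no call. No paired analysis was possible because each tumor has a number of its own in the labels. With 6 and 4 tumors, small differences are limited by the spread between tumors rather than by depth.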
